A study of Mus musculus with 22 samples.

Results

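Interferon-response neutrophils of the mouse terminal ileum are described here, as cells that held transcripts of the chemokines Cxcl9, Cxcl10 and Cxcl11 or of the interferon-induced genes Gbp5 and Rsad2. Members were selected on these 5 genes from the counts of all 22 libraries. A pool of base cells was first taken, with at least 500 transcripts, at least 5 of S100a8 and S100a9 together, at most 2 of the C1q genes (C1qa, C1qb, C1qc) and at most 1 of the granule genes Ngp, Ltf and Camp. Of 1383 cells with at least 500 transcripts, 637 were base cells. The members were the 15% of base cells with the highest share of the 5 genes among the transcripts of genes whose names do not start with Gm. This gave 96 members, and the 541 other base cells were their comparison.

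Recipients were BALB/c mice, 7 to 9 weeks old, exposed to 5 Gy of radiation 2 times, and each then got 5000000 marrow cells from C57BL/6 mice. Their ileum was taken on day 21. Mice with acute graft-versus-host disease, written aGVHD below, also received 400000 donor T cells and gave 12 libraries. Control mice received the marrow with no T cells and gave 10 libraries. Irradiation, the marrow graft and the mismatch between donor and host strain were therefore shared by both groups. Leukocytes freed from ileal tissue were sorted on CD45, H2kb, CD11b and Ly6G, a gate for donor-derived neutrophils, and read by CEL-Seq2, which counts the 3′ ends of transcripts in single cells by molecular identifiers. The labels do not say which mouse each library came from. Every p-value below therefore reflects the variation among libraries alone, part of which may be technical.

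CXCL9, CXCL10 and CXCL11 are ligands of CXCR3, a chemokine receptor of activated T cells and natural killer cells, and are classic products of cells exposed to interferon gamma. Gbp5 encodes a guanylate-binding protein that acts in cell-autonomous defence and inflammasome activation. Rsad2 encodes viperin, an antiviral enzyme that type I interferon induces strongly. Type I interferon acts on genes mainly through a DNA element called the interferon-stimulated response element, and interferon gamma through the gamma-activated site. Many genes respond to both interferons, so a list of responding genes does not separate the cytokines.

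The bases just before the start sites are shown for 3 of the genes that chose the members and for 3 interferon-induced genes that were higher in them, chosen because each holds the letters of the response element. Each is the 250 bases before the RefSeq start site in build GRCm38.p6, read 5′ to 3′ on the gene's strand, at chr5:92348890-92349139 for Cxcl10 (minus strand), chr3:142496684-142496933 for Gbp5 (plus), chr12:26456453-26456702 for Rsad2 (minus), chr3:142620413-142620662 for Gbp2 (plus), chr3:142530086-142530335 for Gbp7 (plus) and chr4:156200819-156201068 for Isg15 (minus). Capitals mark matches on either strand to the response element, searched as GAAANNGAAA, and to the gamma-activated site, searched as TTCNNNGAA.
Cxcl10: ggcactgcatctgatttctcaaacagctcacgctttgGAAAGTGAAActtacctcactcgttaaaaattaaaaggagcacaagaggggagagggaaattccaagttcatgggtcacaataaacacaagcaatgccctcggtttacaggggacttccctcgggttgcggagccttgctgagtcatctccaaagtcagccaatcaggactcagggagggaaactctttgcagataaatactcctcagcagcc
Gbp5: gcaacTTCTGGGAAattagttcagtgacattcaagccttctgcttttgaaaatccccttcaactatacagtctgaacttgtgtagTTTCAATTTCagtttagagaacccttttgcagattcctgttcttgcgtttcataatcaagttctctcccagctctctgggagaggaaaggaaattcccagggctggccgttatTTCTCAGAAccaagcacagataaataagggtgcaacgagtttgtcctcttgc
Rsad2: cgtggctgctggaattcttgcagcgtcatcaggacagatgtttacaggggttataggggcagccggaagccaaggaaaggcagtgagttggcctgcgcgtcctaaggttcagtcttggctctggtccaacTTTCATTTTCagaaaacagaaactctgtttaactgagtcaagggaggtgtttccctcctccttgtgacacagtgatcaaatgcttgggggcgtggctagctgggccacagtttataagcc
Gbp2: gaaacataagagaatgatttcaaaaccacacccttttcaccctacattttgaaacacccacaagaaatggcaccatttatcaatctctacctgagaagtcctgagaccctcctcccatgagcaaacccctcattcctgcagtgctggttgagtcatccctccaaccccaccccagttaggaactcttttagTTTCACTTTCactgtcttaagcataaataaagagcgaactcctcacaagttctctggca
Gbp7: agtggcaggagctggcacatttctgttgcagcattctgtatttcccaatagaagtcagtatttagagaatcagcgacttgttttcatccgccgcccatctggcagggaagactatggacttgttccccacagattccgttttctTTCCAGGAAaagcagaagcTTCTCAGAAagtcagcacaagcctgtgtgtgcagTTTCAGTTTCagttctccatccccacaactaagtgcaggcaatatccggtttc
Isg15: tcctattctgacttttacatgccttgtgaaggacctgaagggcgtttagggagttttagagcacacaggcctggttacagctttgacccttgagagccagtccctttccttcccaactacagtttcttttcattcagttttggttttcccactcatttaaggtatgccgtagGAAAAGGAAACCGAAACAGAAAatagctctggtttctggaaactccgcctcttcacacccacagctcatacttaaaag
The response element letters begin 213 bases before the start in Cxcl10, 165 in Gbp5, 120 in Rsad2, 59 in Gbp2 and 53 in Gbp7. Isg15 held 3 overlapping matches, beginning 78, 72 and 66 bases before its start. The gamma-activated letters were found in Gbp5, 245 and 52 bases before the start, and in Gbp7, 106 and 87 bases before it. Over all 32851 promoter windows of the same length, 2.98% held the first motif and 7.02% the second. The Cxcl9 and Ifi47 windows held neither string of letters. Among the 15 genes with the highest fold changes in members, 8 had a window in the table, of which 1 (Gbp2) held the first motif and 1 (Chil3) the second. These are letter matches and not measured binding sites.

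Library totals ran from 45607 to 360054 transcripts, with 74 to 95 cells of at least 500 transcripts in aGVHD libraries and 11 to 60 in control libraries. Each library used the same 192 barcode numbers, and no cell had the same counts as another. Members held a median of 1489 transcripts of named genes and other base cells 1455. Within libraries the medians could differ more, with totals of 1468 transcripts in members and 2834 in other base cells of aGVHD replicate 1, and 3688 and 2410 in aGVHD replicate 8. Of neutrophil genes that the rule did not use, Csf3r, the receptor for the growth factor G-CSF, was found in 84 of 96 members (87.5%) and 476 of 541 other base cells (88.0%). The decoy receptor gene Il1r2 was found in 85 members (88.5%) and 485 other base cells (89.6%). Ly6g, whose protein was used for the sort, had a transcript in 3 members (3.12%) and 33 other base cells (6.10%), against 58.8% of the 51 cells left out for granule transcripts. Base cells of doubtful quality, defined by a total above 4 times the library median or by more than 2% of transcripts from Kcnq1ot1, numbered 27, of which 20 came from aGVHD and 7 from control libraries, and none was a member.

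The 5 genes differed widely in how many members carried them. These values chose the members and are given as a description. Rsad2 was found in 72 of the 96 members and Cxcl10 in 61, while Gbp5 was found in 43, Cxcl9 in 32 and Cxcl11 in 14. Summed over members, Cxcl10 gave 624 transcripts, Rsad2 416, Cxcl9 192, Gbp5 88 and Cxcl11 46. Per member, transcripts of the 5 genes together ranged from 2 to 122 with a median of 10, and other base cells held a median of 1. In share of named transcripts, members ran from 31.2 to 354 per 10000 (median 63.2). The last cell inside the threshold had 5 of 1604 named transcripts (31.2 per 10000), and the first outside it had 2 of 651 (30.7 per 10000). Only 6 members were admitted on 3 or fewer transcripts.

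Chemokine transcripts were concentrated in few cells. The 5 members with the most Cxcl9 held 110 of the 192 Cxcl9 transcripts, and the highest had 57. That member, from aGVHD replicate 4, also had 45 Cxcl10 transcripts. It held 7376 named transcripts against a median of 1489 in members, and these counts are not scaled for depth. For Cxcl10 the top 5 held 202 of 624 transcripts. Both Cxcl9 and Cxcl10 were seen in 24 members, and all 14 members with Cxcl11 also had Cxcl10. A transcript of Cxcl9 or Cxcl10 was present in 69 members. The other 27 had none of the 3 chemokines, 18 of them with Rsad2 alone and 9 with Gbp5 and Rsad2. Absence at this depth means that no transcript was read, not that the gene was silent.

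**Figure D1:**
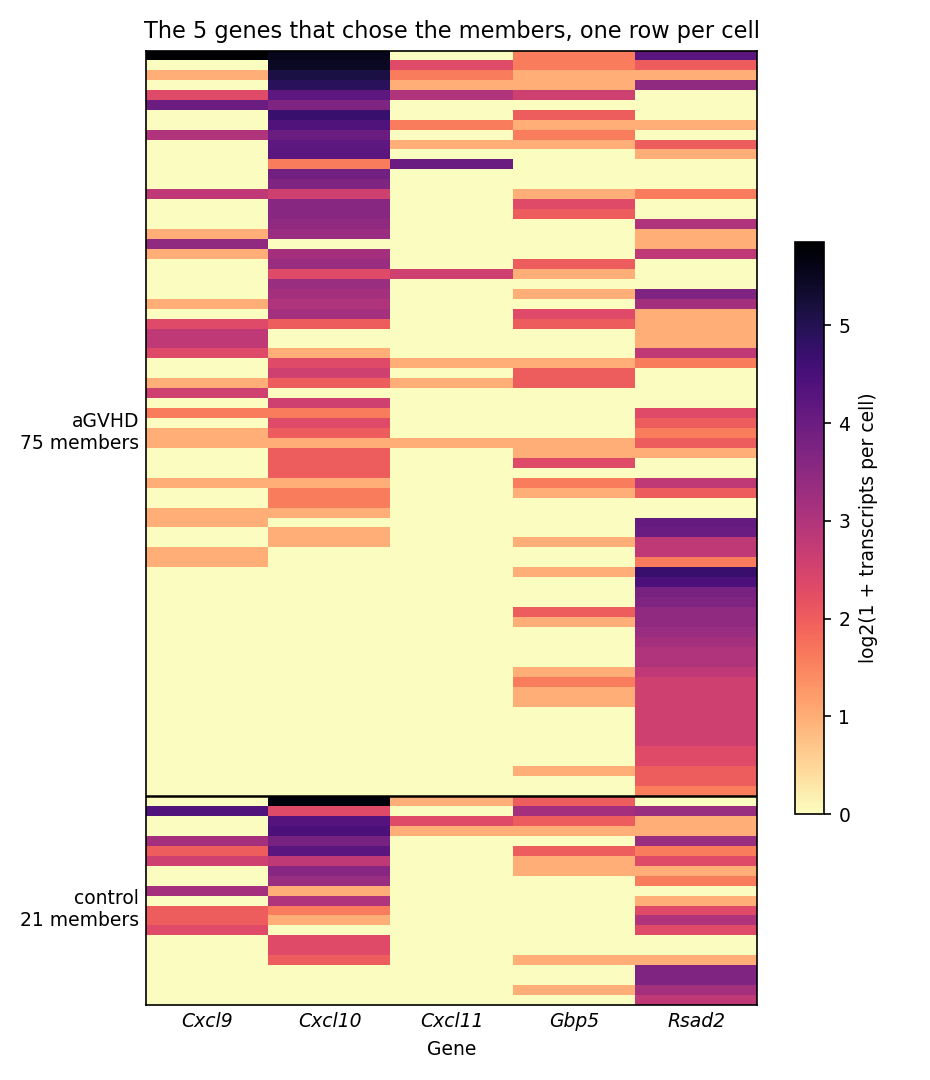
Transcripts of the 5 selecting genes in each of the 96 members (rows), as log2(1 + transcripts per cell), with the 75 aGVHD members above the line and the 21 control members below it, ordered by their CXCR3-ligand transcripts. Cxcl10 and Rsad2 were read together in 38 rows, and 27 rows hold no Cxcl9, Cxcl10 or Cxcl11.

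Levels of the 5 genes in other cells and in barcodes without cells are given as a description. Pooled levels are given as parts per 1000000 of the transcripts of named genes (ppm). Cxcl10 reached 3820 ppm in members (exact Poisson 95% interval 3526 to 4132) and 189 (163 to 217) in other base cells. It was at 240 (176 to 321) in 2110 barcodes taken to have received no cell, which held a median of 66.5 named transcripts. A Cxcl10 transcript was read in 2.04% of those barcodes and 19.8% of other base cells, so a like share does not mean a like number per barcode. Other base cells are those left after the cells rich in the 5 genes were taken, so their low level follows from the selection. Cxcl9 was at 1175 ppm (1015 to 1354) in members and 77.3 (61.2 to 96.3) in other base cells, against 47.0 (21.5 to 89.3) in barcodes without cells. Rsad2 was at 2547 ppm (2308 to 2803) in members and 255 (225 to 288) in other base cells, above the 73.2 (40.0 to 123) of barcodes without cells. These intervals cover counting error only. Of 57 cells with B or plasma cell markers (median 821 named transcripts), 17.5% had a Cxcl10 transcript, against 63.5% of members (median 1489) and 19.8% of other base cells (median 1455).

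Cells with C1q transcripts, which carry macrophage markers and were left out of the base cells, also held the chemokines. Among 70 cells with over 2 C1q transcripts, Cxcl9 was at 602 ppm, Cxcl10 at 1192 ppm and Rsad2 at 272 ppm. These cells were not selected on the 5 genes, so their levels cannot be ranked against those of members. From 1 to 2 C1q transcripts were present in 18 of 96 members (18.8%) and in 102 of 541 other base cells (18.9%). The summed level of 10 macrophage markers was 808 ppm in members and 828 ppm in other base cells. Its range over the 13 libraries with at least 3 cells of both kinds was 278 to 1404 in members and 470 to 1269 in other base cells, and none of the 10 markers was at 0 in members.

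Members were found in 11 of the 12 aGVHD libraries and 8 of the 10 control libraries. They made up 75 of 513 aGVHD base cells (14.6%, exact binomial interval 11.7 to 18.0%) and 21 of 124 control base cells (16.9%, 10.8 to 24.7%). In libraries with at least 5 base cells, the share ran from 0.0% through a median of 14.9% to 28.6% in the 12 aGVHD libraries, and from 4.35% through 20% to 23.5% in the 7 control libraries. The groups overlapped over nearly their whole range, and aGVHD replicate 10, with 25 base cells, had no member. The mean was 14.6% ± 8.33 in aGVHD (SD, n = 12) and 17.7% ± 6.83 in control (SD, n = 7), a difference of -3.15 percentage points with p = 0.367 by a two-sided exact permutation test within the title sets. Library titles fall into a set with a date-like number and a set with G1. In the dated set alone the difference was -3.79 points (exact permutation p = 0.399, n = 8 and 5), and in the G1 set alone it was -2.83 points (exact permutation p = 0.6, n = 4 and 2, where the smallest possible p is 0.0667). No difference in the share was therefore detected, and the cells were present without donor T cells too.

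**Figure D2:**
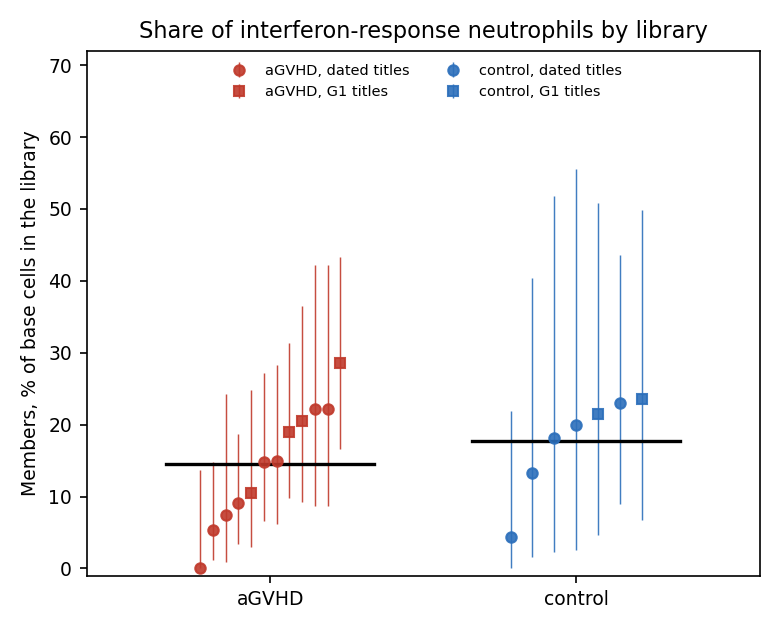
Members as a percentage of base cells in each library with at least 5 base cells (points; circles for dated titles, squares for G1 titles), with exact binomial 95% intervals and the group mean as a black line. The 12 aGVHD libraries run from 0.0% to 28.6% and the 7 control libraries from 4.35% to 23.5%.

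Among genes outside the 5, members differed from other base cells of the same library in many further interferon-induced genes. Sums over members and over other base cells were compared in the 13 libraries with at least 3 of each (10 aGVHD, 3 control), with the library as a block and the 5 selecting genes left out. Of 1184 genes tested, 41 were higher in members (3.46%) and 22 were lower (1.86%) at a limma adjusted p under 0.05. Of the 41 higher genes, 17 belonged to the lists of interferon-induced GTPases, antiviral genes and interferon signalling. Since the cells were selected on interferon-induced transcripts, this describes which further genes were read in the same cells, and the lists were chosen with earlier results of these data known. The median log2 fold change of all genes tested was -0.00. Within the dated set alone 26 genes were higher and 19 lower (7 libraries), and within the G1 set alone 15 were higher and 4 lower (6 libraries). Of the 41 higher genes, the dated set could test 39 and the G1 set 40. Each of these had a positive sign, and 20 and 14 were called.

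The GTPases induced by interferon gamma had the highest list median. Of 20 listed, 13 were in the tables and 8 passed the low-count filter. Of these, 6 were higher, none was lower, and the median log2 fold change was 1.25. Ifi47, an immunity-related GTPase of the vacuolar defence system, had 231, 1479 and 2263 transcripts in CPM (counts scaled to a library sum of 1000000; lowest, median and highest library) in members, against 152, 386 and 967 in other base cells. It was higher in members of 12 of 13 libraries, aGVHD replicate 3 being the exception, with a log2 fold change of 1.85 ± 0.22 (SE, n = 13 libraries, limma adjusted p = 4.68e-07). Gbp2, a guanylate-binding protein that attacks pathogen vacuoles, had 728, 2888 and 4950 CPM in members, against 103, 800 and 1984 in other base cells. It was higher in members of all 13 libraries (1.54 ± 0.23, adjusted p = 1.68e-05), although the ranges overlapped. Gbp10 (1.6 ± 0.27), Gbp4 (1.44 ± 0.29), Gbp7 (1.07 ± 0.22) and Irgm1 (0.89 ± 0.27), a regulator of the immunity-related GTPases, were also higher. Guanylate-binding protein genes are near-identical in stretches, so reads may have been shared between them in the authors' counting.

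Antiviral genes of the type I interferon list were higher as well. Of 53 listed, 48 were in the tables, 14 passed the filter and 8 were higher with none lower, at a median of 0.96. Isg15, a ubiquitin-like modifier, had 364, 1748 and 4827 CPM (lowest, median, highest library) in members, against 374, 763 and 2798 in other base cells. It was higher in members of 12 of 13 libraries, with a log2 fold change of 1.11 ± 0.20 and a limma adjusted p of 0.000219. Ifi204, a DNA sensor of the p200 family, was higher by 1.52 ± 0.29, and Parp14, a mono-ADP-ribosyltransferase, by 1.45 ± 0.31. Zbp1, a sensor of left-handed nucleic acid that can start necroptosis, was higher by 1.27 ± 0.27, and Rtp4 by 1.26 ± 0.26. Isg20, Oas3 and Trim30a were the other 3 genes called. Samhd1, a nucleotide phosphohydrolase that restricts retroviruses, lay outside the lists and was higher by 0.96 ± 0.18. Many antiviral genes did not pass the filter, which uses the transcripts of members and other base cells together. Ifit1, for example, had 50 transcripts in all members (306 ppm) and 85 in all other base cells (83.2 ppm), and was not tested.

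Of 21 interferon signalling genes and transcription factors, 11 passed the filter, 3 were higher and none was lower, with a median of 0.37. Irf1, the transcription factor that drives many interferon gamma targets, had 608, 2130 and 4993 CPM in members, against 589, 1115 and 3358 in other base cells, and was higher by 0.79 ± 0.19 (adjusted p = 0.00451). Irf7, the amplifier of type I interferon, was higher by 0.96 ± 0.27 and the feedback inhibitor Socs3 by 0.75 ± 0.23. Ifngr1, a receptor chain for interferon gamma, had a log2 fold change of -0.63 ± 0.30 with an adjusted p of 0.274 and is not called.

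**Figure D3:**
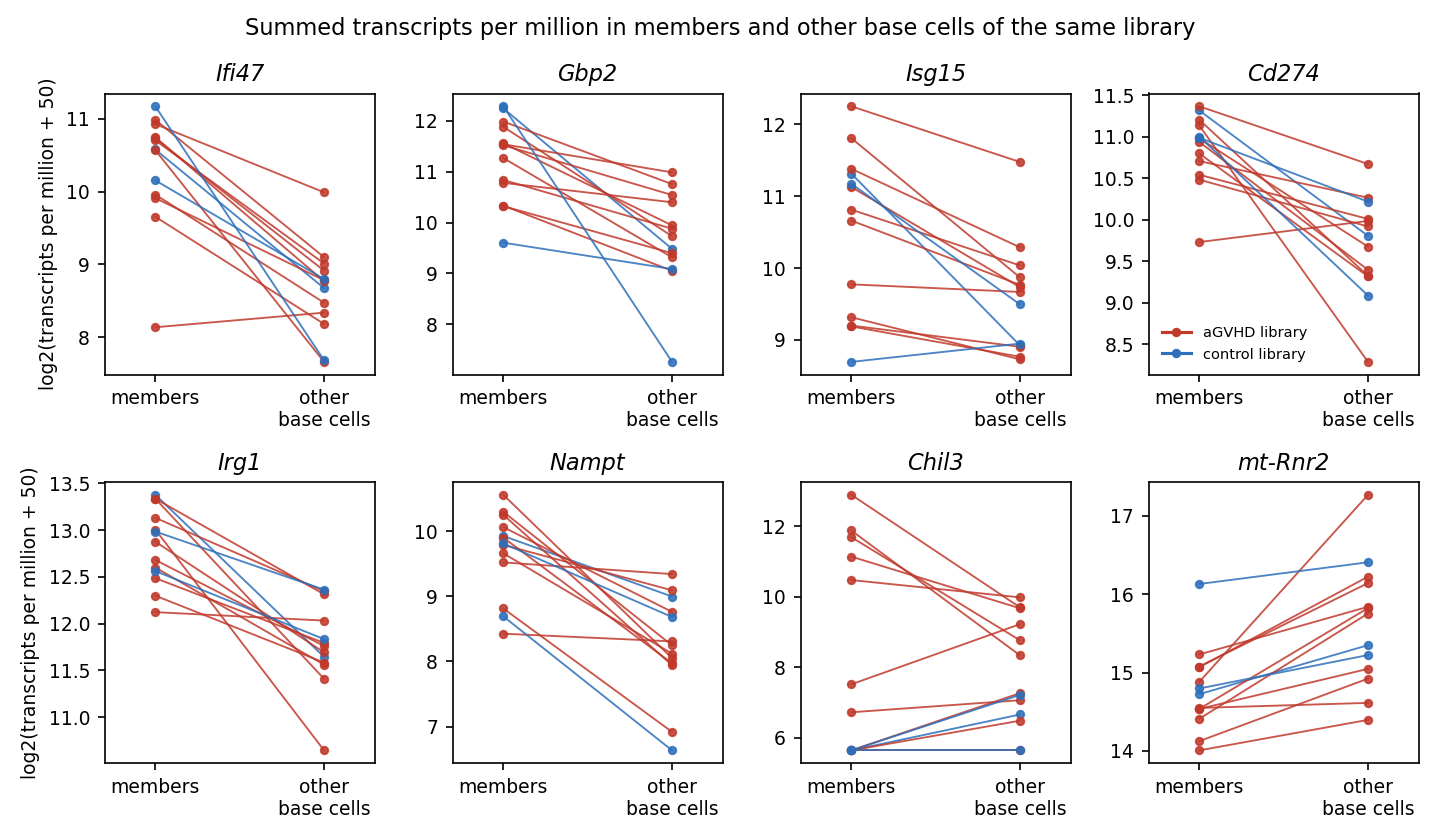
Summed transcripts in CPM (log2 after adding 50) in members and in other base cells of the same library, joined by lines for 13 libraries (red for aGVHD, blue for control). Gbp2, Irg1 and Nampt were higher in members of all 13 libraries, Ifi47, Isg15 and Cd274 in 12, and mt-Rnr2 was lower in all 13, while Chil3 was higher in 5 and lower in 6.

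Among genes that act on T cells, 2 of the 5 that passed the filter were higher. Cd274, which encodes the inhibitory ligand PD-L1, had 799, 1967 and 2586 CPM in members, against 262, 844 and 1577 in other base cells. In 10 of 13 libraries the members lay above the highest value of other base cells, and the log2 fold change was 1.22 ± 0.21 (limma adjusted p = 0.000105). Irg1, the older symbol of Acod1, encodes the enzyme that makes the anti-inflammatory metabolite itaconate. It was one of the most abundant genes called, with 4408, 7468 and 10630 CPM in members, against 1549, 3421 and 5215 in other base cells. All 13 libraries had the higher value in members, 11 of them above the highest of the other base cells (1.07 ± 0.16, adjusted p = 1.68e-05). Il1rn, the interleukin-1 receptor antagonist, had a fold change of 0.53 ± 0.17 with an adjusted p of 0.0642. In all, 24 genes of this list were in the tables, and the median of the 5 tested was 0.53.

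Of the 15 highest calls, several lay outside the lists. Nampt, the rate-limiting enzyme of NAD salvage, had 294, 849 and 1460 CPM in members, against 49.3, 254 and 599 in other base cells, and was higher in all 13 libraries (1.56 ± 0.24, adjusted p = 3.36e-05). Gdap10, a non-coding gene that lies inside Nampt in the RefSeq annotation of GRCm38.p6, had the highest fold change of all (1.99 ± 0.32), and reads of the pair may not be separable. Upp1, uridine phosphorylase, was higher by 1.27 ± 0.23. Pnp, purine nucleoside phosphorylase, lay just below the 15 highest and was higher by 1.24 ± 0.30. The small GTPase gene Rnd1 (1.79 ± 0.38), the chloride channel protein gene Clic4 (1.5 ± 0.33) and the NF-kB inhibitor gene Nfkbib (1.27 ± 0.33) complete the 15 highest together with Chil3. Rnd1 and Nfkbib were higher in members of only 8 of 13 libraries.

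Chil3, a chitinase-like protein also called Ym1, rested on some aGVHD libraries. Its log2 fold change was 1.75 ± 0.34 (adjusted p = 0.000648). It had up to 7530 CPM, in members of aGVHD replicate 3, yet it was higher in members of 5 libraries, lower in 6 and at 0 in both kinds of cells in 2. Its transcripts were also concentrated in few cells. The member with the most Chil3 held 94 of the 281 transcripts read in members, and the highest other base cell held 18. Cells with any Chil3 transcript were about as frequent in both kinds, at 21 of 96 members (21.88%) and 108 of 541 other base cells (19.96%). In the dated set alone Chil3 was not called (1.16, adjusted p = 0.226), nor with a trended variance in place of precision weights (0.90, adjusted p = 0.21).

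Other groups showed few or no calls, beside 3.46% of all 1184 genes tested that were higher. A single call in lists this small is not read as a result about the list. Of 18 NF-kB target genes tested, the early-response gene Ier3 (0.90 ± 0.22) and Tnfaip2 (0.57 ± 0.17) were higher and none was lower, at a median of 0.46. Ier3 was higher in members of only 8 of 13 libraries. Its log2 fold change was 0.01 in the dated set alone and 1.75 in the G1 set alone. Of 14 genes of antigen presentation by MHC class I, only the peptide transporter Tap1 was called (0.92 ± 0.28, median of the list 0.29). Other chemokines had no call among 7 tested. Cxcl2, a neutrophil attractant and the most abundant of them, averaged 15140 CPM ± 9635 in members and 12690 ± 5597 in other base cells (SD, n = 13). Cxcl3 had a fold change of 1.13 ± 0.39 with an adjusted p of 0.0883. Of 4 inflammasome and cell death genes, Nlrp3 was higher (0.77 ± 0.24). Without the cells of doubtful quality, Tnfaip2 (limma adjusted p = 0.141), Tap1 (0.053) and Nlrp3 (0.119) were not called. Among 24 neutrophil identity genes, Slfn4 was the only call (1.08 ± 0.24), and Csf3r differed by -0.15 ± 0.18 (adjusted p = 0.704). Apart from Chil3, the 11 alarmin and inhibitor genes tested held no call, at a list median of 0.03.

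**Figure D4:**
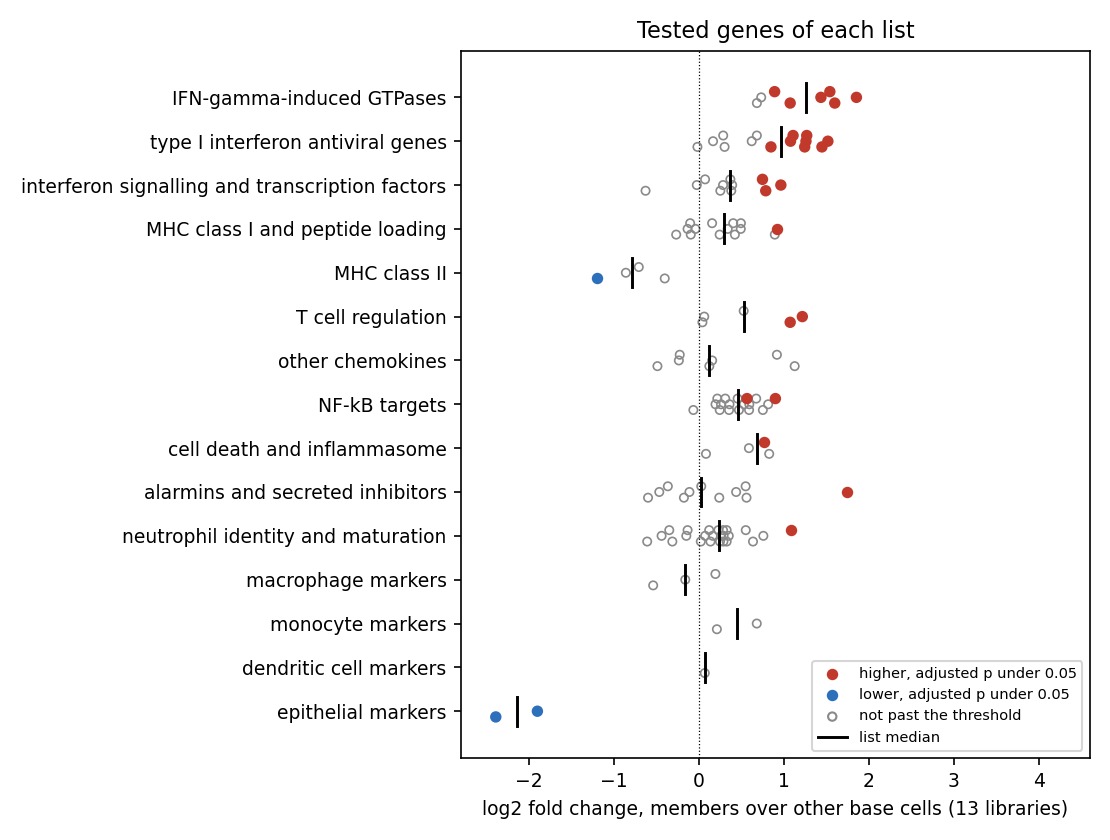
Log2 fold change, members over other base cells, of every tested gene of each list (points, filled where the limma adjusted p is under 0.05) with the list median as a black bar. The GTPase list has its median at 1.25 and the antiviral list at 0.96, while all 4 MHC class II genes and both epithelial genes lie below 0.

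The 22 lower genes were mostly mitochondrial. Of 14 mitochondrially encoded genes tested, 12 were lower in members, by log2 fold changes of -0.81 (mt-Nd1) to -1.30 (mt-Atp8). The large ribosomal RNA mt-Rnr2 averaged 30110 CPM ± 14080 in members and 58230 ± 36360 in other base cells (SD, n = 13), and was lower in all 13 libraries (-0.89 ± 0.14, adjusted p = 3.36e-05). Mitochondrial transcripts also enter the denominator of the score that chose the members. Without the 27 base cells of doubtful quality, none of which was a member, 4 genes were lower and 28 higher. mt-Rnr2 was then still called (-0.52, adjusted p = 0.00065), whereas mt-Co1 was not (-0.39, adjusted p = 0.255). D8Ertd738e (-1.66 ± 0.32) and the unnamed model RP23-341H2.4 (-1.22 ± 0.21) were called in that fit too. Lars2 (-1.16 ± 0.34), a mitochondrial leucyl-tRNA synthetase, was also lower in the main fit. So were 2 of 75 ribosomal protein genes, Rpl22 and Rpl28, beside 22 of all 1184 genes tested (1.86%). Without the doubtful cells, Lars2 and Rpl22 (limma adjusted p = 0.411 for each) and Rpl28 (0.395) were not called.

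The antimicrobial lectin genes Reg3b (-2.39 ± 0.53) and Reg3g (-1.90 ± 0.45) and the antibody transporter gene Pigr (-1.44 ± 0.43) are products of gut epithelium. Reg3b had 6 transcripts in members and 916 in other base cells of these libraries. Without the doubtful cells, Reg3b had a fold change of -0.80 (limma adjusted p = 0.524) and Pigr of -0.44 (0.746), and neither was called. The 10 epithelial markers summed to 190 ppm in members and 5848 in other base cells, and to 761 in other base cells without the doubtful cells. Over libraries their range was 0.0 to 1209 in members and 0.0 to 16670 in other base cells, with Fabp1, Fabp2 and Krt18 at 0 in members. H2-Aa, a chain of MHC class II, was lower (-1.20 ± 0.36), and the other 3 MHC class II genes tested had negative values without a call. Without the doubtful cells H2-Aa was not called either (-0.99, limma adjusted p = 0.159). With a library left out, it was called in 4 of 13 fits.

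Markers of other leukocytes were measured in both kinds of cells. T and natural killer cell markers were found in 2 members and 27 other base cells, and 8 of 10, the T cell receptor gene Trac and interferon gamma itself (Ifng) among them, were at 0 in members. Their library range was 0.0 in all members' sums and 0.0 to 213 ppm in other base cells. B or plasma cell markers were at 1347 ppm in members and 8387 in other base cells, or 1248 in other base cells without the doubtful cells. Their library range was 0.0 to 8752 in members and 0.0 to 7806 in other base cells, with Cd79a, Cd79b, Ms4a1 and Mzb1 at 0 in members. Monocyte markers were at 2357 ppm in members and 1605 in other base cells (library ranges 174 to 5877 and 458 to 2721), with none of 6 at 0. Only 2 of the 6 passed the filter, and neither was called. Ly6c2 had a log2 fold change of 0.68 (limma adjusted p = 0.258) and Plac8 of 0.21 (0.68). The part of monocyte markers in the higher calls was not tested. Dendritic cell markers were at 294 and 378 ppm (library ranges 0.0 to 789 and 203 to 703), with Flt3, Clec9a, Zbtb46 and Cd209a at 0 in members. Eosinophil or mast cell markers were at 42.9 and 114 ppm (library ranges 0.0 to 140 and 30.5 to 328), with Prg2, Cpa3 and Ms4a2 at 0 in members.

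Interferon-induced levels were graded over the base cells and not confined to members. This is a description of pooled cells, with no test. Ifi47 was at 1322 ppm in members (exact Poisson 95% interval 1152 to 1511), 401 (352 to 455) in the 275 other base cells with at least 1 transcript of the 5 genes, and 217 (175 to 267) in the 266 base cells with none. Gbp2 was at 2822, 1070 and 664 ppm in the same order, and Cd274 at 1934, 885 and 700. Depth differed along this order, with median named transcripts of 1489, 1628 and 1240. Barcodes without cells (median 66.5 named transcripts) held 204 ppm of Ifi47 (39 transcripts), a share close to that of the lowest class. An Ifi47 transcript was read in 1.80% of these barcodes and in 24.8% of the base cells with none of the 5. The share alone does not tell stray transcripts from those of the cells. In barcodes without cells Gbp2 was at 335 and Cd274 at 251 ppm, below the lowest class.

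Levels of other interferon genes in members with and without chemokine transcripts are given as pooled values, with no test across libraries. GTPases were at 9007 ppm in the 69 members with a CXCR3-ligand transcript and 8862 ppm in the 27 without, over 13 genes. Antiviral genes were at 11410 ppm in members with a ligand and 17150 in members without, over 48 genes. Isg15 was at 1721 (1500 to 1965) and 3299 (2738 to 3942) ppm, and Slfn4 at 1366 (1170 to 1585) and 2400 (1924 to 2956). Irf1 was at 2921 (2631 to 3234) and 1418 (1059 to 1859). Batf2, a transcription factor of the interferon gamma response, was found in 17 of 69 members with a ligand and 1 of 27 without. Membership without a ligand required Rsad2 or Gbp5, so the classes differ by selection, and the 27 were shallower (median 1148 against 1589 named transcripts). Of the 27, 6 came from aGVHD replicate 12, where no member had a ligand. Without that library Isg15 was at 3053 and the antiviral genes at 16010 ppm in members with no ligand. Other libraries were uneven too. All 11 members of aGVHD replicate 4, which had the highest Irf1 of the 13 libraries (4993 CPM in members), had a ligand. Of 6 members of aGVHD replicate 5, which had the highest Isg15 (4827 CPM), 4 had none.

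Members did not differ detectably between aGVHD and control mice. The comparison rested on 10 aGVHD and 3 control libraries with at least 3 members. Of 810 genes tested, none was called (0.0%) by limma at an adjusted p under 0.05, and 50 had an unadjusted p under 0.05. Gbp4 averaged 948 CPM ± 667 in aGVHD members (SD, n = 10) and 1406 ± 480 in control members (SD, n = 3), with a log2 fold change of -0.74 ± 0.48 (limma adjusted p = 0.808). Ifi47 averaged 1369 ± 582 and 1747 ± 728 CPM in aGVHD and control members (-0.55 ± 0.46, adjusted p = 0.808). Cd274 averaged 1885 ± 515 and 2311 ± 200 CPM (-0.34 ± 0.36, adjusted p = 0.817).

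The 5 genes were also compared over all base cells, a selection that did not use them. In 12 aGVHD and 7 control libraries with at least 5 base cells, none of 3453 genes was called (0.0%) by limma at an adjusted p under 0.05, and 412 had an unadjusted p under 0.05, 103 of them higher and 309 lower in aGVHD. A fit with a trended variance made no call either. B or plasma cell markers were at 1130 ppm in aGVHD base cells and 27980 ppm in control base cells, epithelial markers at 2135 and 14660 ppm, and their part in these differences was not tested. The median log2 fold change over all genes was -0.13, and 0.05 when sums were scaled to their totals alone. Cxcl10 had 95.3, 455 and 1780 CPM (lowest, median, highest library) in aGVHD base cells, against 294, 827 and 1515 in control base cells. The groups overlapped, and the log2 fold change was -0.77 ± 0.36 (limma adjusted p = 0.39). In the dated set alone it was -1.16 and in the G1 set alone -0.05.

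Cxcl9 had 0.0, 114 and 743 CPM in aGVHD base cells, against 0.0, 219 and 846 in control base cells (log2 fold change -0.11 ± 0.59, limma adjusted p = 0.978). The highest Cxcl9 and Cxcl10 values of the aGVHD group were both in replicate 4. In that library a member with 7376 named transcripts held 57 of the 84 Cxcl9 transcripts read in members. Rsad2 had 102, 514 and 1884 CPM in aGVHD base cells, against 152, 585 and 1024 in control base cells (0.01 ± 0.43, adjusted p = 0.995). Gbp5 had 31.1, 145 and 268 CPM, against 36.8, 98.5 and 325 (0.02 ± 0.32, adjusted p = 0.994). Cxcl11 had 0.0, 19.2 and 311 CPM, against 0.0, 36.8 and 98.5 (-0.63 ± 0.62, adjusted p = 0.762). Within the G1 set alone the fold change of Cxcl11 was positive, at 1.01, and 3 other genes had opposite signs in the sets. Cxcl9 had 0.40 among dated titles but -0.65 among G1 titles, Gbp5 0.42 but -0.55, and Rsad2 0.29 but -0.55.

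**Figure D5:**
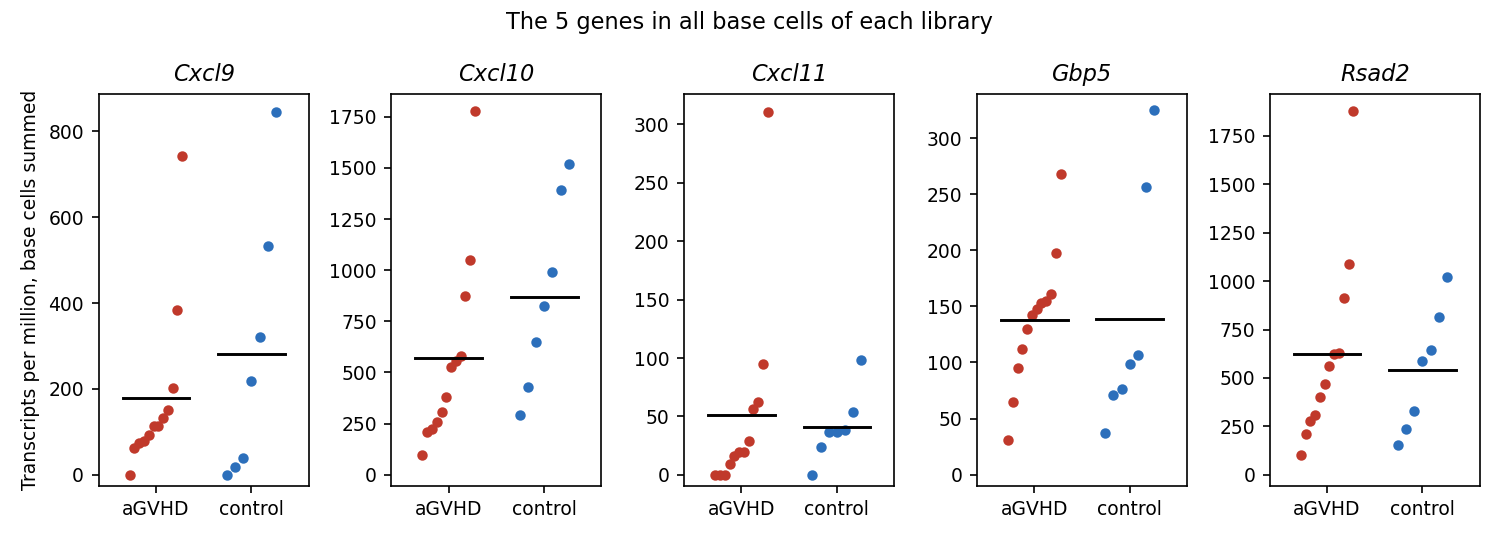
Transcripts in CPM of the 5 genes in all base cells of each library (points), with the group mean as a black line, for 12 aGVHD and 7 control libraries. The groups overlap for each gene, and Cxcl10 runs from 95.3 to 1780 in aGVHD libraries and from 294 to 1515 in control libraries.

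Other interferon genes in base cells pointed in both directions between the groups without a call. Ifi204 averaged 226 CPM ± 89.2 in aGVHD libraries (SD, n = 12) and 77.0 ± 65.7 in control libraries (SD, n = 7), with a log2 fold change of 1.46 ± 0.39 and a limma adjusted p of 0.185. Slfn1 averaged 573 ± 184 and 292 ± 136 CPM in aGVHD and control (0.93 ± 0.27, adjusted p = 0.185), and Stat3 419 ± 90.2 and 248 ± 102 CPM (0.77 ± 0.25, adjusted p = 0.227). Irf8, a transcription factor of the monocyte lineage, averaged 56.9 ± 43.7 and 119 ± 58.4 CPM (-1.25 ± 0.45, adjusted p = 0.291).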

How the data were processed

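CEL-Seq2 tables of 22 libraries were used (12 aGVHD, 10 control). The tools named in the submitters' processing notes are BWA 0.6.2-r126 and bcl2fastq 2.17.1.14. No source used here gives a genome build. The deposited values (entered as unit other) are transcript counts per gene and barcode that the authors estimated from molecular identifiers, not normalised for depth. They were rounded to whole transcripts here.

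Members, gene lists and comparisons were chosen with earlier results of these data known. Gene models named Gm and a number were left out of tests. Sums per library were tested with limma 3.58.1 (R 4.3.3) on log2 CPM with voom weights, trimmed-mean scaling (trim 0.3 of ratios, 0.05 of levels) and Benjamini-Hochberg adjustment. Genes needed 1.5 expected transcripts in the shallower side's mean sum and a transcript in 50% of sums. Scaling used genes with at least 3 expected transcripts in every sum. Scaling genes and filter were set after tests on simulated sums, since members' sums are shallow. Members against other base cells had the library as a block, and the groups were compared with the title set as a term. Shares were compared by exact permutation (Python 3.11.15, scipy 1.17.1). A count model was not planned, since an earlier column check could not read the tables as counts.

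Named genes were the 15 highest and 10 lowest calls, up to 4 genes per list by smallest p, and, between groups, the 5 selecting genes and up to 3 per interferon list; Ifit1, Samhd1, Pnp, Csf3r, Batf2, Slfn4 by class, mt-Co1, Cd274 and further calls were named after their values were seen. Acod1 was matched to Irg1. No doublet caller was run. Barcodes without cells were the 96 per library with the lower summed total. Alternatives covered the score threshold, depth, filter, scaling, weights, title sets, cell quality, other-cell markers and each library left out. Title numbers shared by groups in the dated set were checked for pairing: deviations from group means over 500 genes correlated at -0.53 to 0.32 in 5 pairs. So few values of both signs cannot decide whether equal numbers mark a pair.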

Additional observations from a re-analysis of the deposited data

Results flagged for a closer look

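Cxcl9 in the cells with over 2 C1q transcripts, which were left out of the base cells, was higher in aGVHD than in control cells, at 845 ppm of named transcripts (exact Poisson 95% interval 737 to 964, 43 cells) against 234 (167 to 319, 27 cells). The cell with the most Cxcl9 held 70 of the 219 aGVHD transcripts, and without it the aGVHD level was 595 (504 to 699). By library, aGVHD replicate 11 held 83 of the 219 transcripts in 3 cells, and control replicates 7 and 8 held 15 and 18 of the 40 control transcripts in 7 and 4 cells. The intervals cover counting error only and the spread between libraries was not tested.

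Ifi205, an interferon-induced gene of the p200 family, was far higher in members of aGVHD replicate 4, at 1220 CPM, than in the other aGVHD libraries. It was 1 of 25 sets of library values examined for a value standing apart, and chance flags about 1 in 20.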

How the results depend on the processing

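Members against other base cells gave 63 calls. The count was 102 without trimmed-mean scaling (82 higher and 20 lower, with the median of all genes at 0.15), 19 in the G1 set alone, 32 without the 27 cells of doubtful quality (28 higher, 4 lower), 10 after each cell was thinned to 250 named transcripts (144 genes tested) and 6 among cells with no transcript of the C1q genes, Csf1r, Adgre1, Mrc1, Flt3, Xcr1 or Ccr7, which may still hold other markers of other cell types. That last setting removed 308 of 637 base cells and 44 of 96 members and left 8 libraries. It tested 31 of the 41 higher genes, all with a positive sign and 3 called. Without a low-count filter 12658 of 15632 genes were called, because a fixed 0.5 is added to sums of unequal depth, so that count says nothing of the cells. Leaving out each library gave 46 to 96 calls, the highest without aGVHD replicate 3 (62 higher, 34 lower). The 25 genes named as the highest and lowest calls kept their direction in each alternative that tested them. Outside these 25, mt-Nd1 changed sign when cells were thinned to 250 named transcripts. Its log2 fold change was then 0.11 (limma adjusted p = 0.831), against -0.81 in the main fit. That setting tested 12 of the 22 lower genes, and 11 of them had a negative sign.

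The share of members kept its sign and its side of the threshold in each alternative, with -5.47 points (exact permutation p = 0.106) for the top 10% of base cells, -1.17 points for the top 20% and for every library with a base cell, -5.38 to -1.83 points with a library left out and -5.48 points (exact sign-flip p = 0.312, smallest possible 0.0625) with title numbers as a replicate block of 5 pairs. Between groups in base cells, 29 genes were called without a filter, 4 with the replicate block against 1 in the same libraries without it, and 0 to 4 with a library left out (4 without control replicate 2). In members, 3 were called without a filter and 0 to 0 with a library left out. Depth limits the members' sums, where 810 genes could be tested between groups and 1184 against other base cells.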
